A study of Homo sapiens with 20 samples.

Results

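The proteasome genes are the protein-coding genes of the human annotation (GENCODE release 44, build GRCh38) whose symbols read PSMA, PSMB, PSMC, PSMD, PSME, PSMF or PSMG followed by a number. There are 48 of them among 20046 protein-coding genes, chosen by name and not by any measured value. They were examined in ChIP-seq data (chromatin immunoprecipitation followed by sequencing) from PC-3, an established line of human prostate cancer epithelial cells. One antibody was against c-Myc (MYC) and the other against RNA polymerase II (POL2). Wild-type (WT) cells were compared with cells in which SLK, a protein kinase gene, was knocked out (SLK-KO, which the labels also call PSD10). Each antibody was used on 3 biological replicates of each genotype, which gives 12 libraries with a list of summits. The labels name no treatment in either genotype, and whether the knockout cells were a single clone is not given in the sources used here. The 6 IgG and 2 Input libraries of the series were not used here.

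The proteasome is the large protease that degrades proteins tagged with ubiquitin. Its 20S core particle is a barrel of outer alpha rings, which gate the entrance, and inner beta rings, which hold the protease sites. The 19S cap binds ubiquitin chains, removes them and unfolds the substrate; its base carries the AAA ATPases and its lid the deubiquitinase. Interferon-induced cells exchange the catalytic beta subunits for immune counterparts and add the PA28 activator, which changes the peptides made for antigen presentation. Most subunit genes are expressed in all tissues and are known to respond together to proteasome stress through NFE2L1, a transcription factor that binds antioxidant-type response elements. MYC, as a dimer with MAX, prefers the E-box sequence CACGTG.

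A summit is the single base where the signal of a called peak is highest. A gene was counted as having a promoter summit when one lay within 1 kb of the transcription start site (TSS) of any of its transcripts. The best-scored of these summits was used, and rank 1 is the best score of a list. The MYC lists held 365, 201 and 267 summits in WT 1 to 3 and 1218, 1420 and 988 in SLK-KO 1 to 3. The POL2 lists held 17126, 5047 and 9925 summits in WT and 19017, 15436 and 16298 in SLK-KO. The lists give no read counts, so sequencing depth is unknown, and a summit that was not called is not evidence that the protein is absent. List length differed between the genotypes and most of all in WT 2, so counts are also given for lists cut to equal length, which kept the 201 best MYC and the 5047 best POL2 summits of each library. POL2 promoter summits were found at the epithelial keratin genes KRT8 and KRT18 in all 6 libraries. The luminal prostate gene KLK3 and the blood cell gene PTPRC had none in any library. SLK itself had a POL2 promoter summit in 2 WT and 3 SLK-KO libraries, which says nothing about the edit, since a knockout need not remove the promoter.

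The 2 proteasome genes with a MYC summit in every library, PSMD9 and PSME3, are among the 3 of 42 with a reference promoter to hand that held the E-box CACGTG there, and PSMB3 is the remaining one. Their E-box sites are shown because the MYC positions below are read against them. They are 30-base stretches of GRCh38, on the plus strand and 5′ to 3′, taken from RefSeq promoter sequences, with the E-box in capitals. The PSMD9 site is chr12:121888647-121888676 and lies upstream of the gene, with the E-box starting 131 bases before the TSS. The PSME3 site is chr17:42833343-42833372, where it overlaps an annotated untranslated region of a longer transcript, and its E-box starts 42 bases before the canonical TSS. The PSMB3 site is chr17:38752491-38752520, upstream of the gene.
PSMD9 E-box: tcaccacaggcgCACGTGttccggcagggc
PSME3 E-box: ggctgcgcagcgCACGTGcacagcctcgca
PSMB3 E-box: gtttcaccagccCACGTGcgcgcaggctcc

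POL2 was found at most proteasome promoters and at nearly all subunits of the standard 26S particle. A promoter summit was called in at least 1 library at 39 of 48 genes (81.3%), against 53.8% of all protein-coding genes. It was called in all 6 libraries at 22 of 48 (45.8%), against 18.0%. By library, 39, 24 and 32 genes had one in WT and 37, 37 and 38 in SLK-KO. The WT libraries spread widely and WT 2, with the shortest list, held the fewest. The WT mean was 31.7 ± 7.51 genes and the SLK-KO mean 37.3 ± 0.577 (SD over 3 libraries), and WT 1 lay above all 3 SLK-KO libraries. The same share of all coding genes ran 47.3%, 19.1% and 35.2% in WT and 48.9%, 45.1% and 47.1% in SLK-KO, and was lowest in WT 2 too. In lists of equal length the counts were 29, 24 and 24 in WT and 26, 28 and 29 in SLK-KO, and the groups overlapped. The matching shares of all coding genes were 24.7%, 19.1% and 23.7% in WT and 24.3%, 24.0% and 24.4% in SLK-KO.

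**Figure D1:**
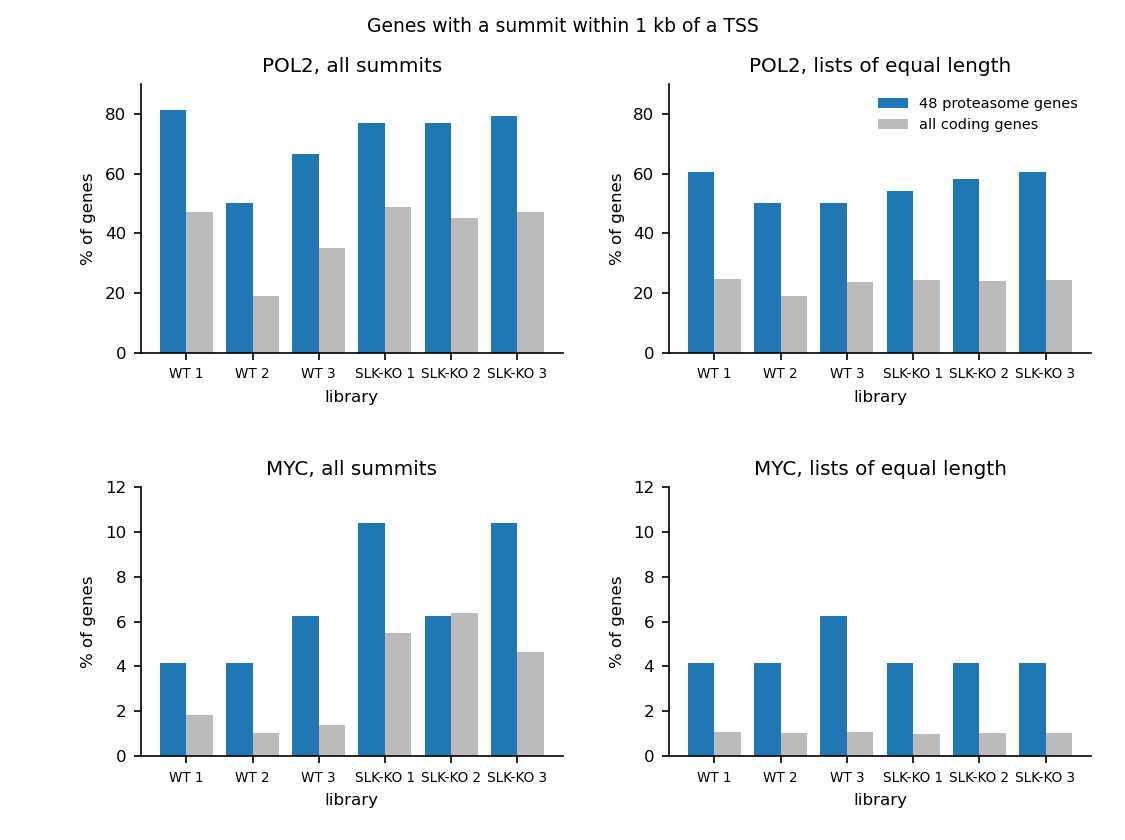
Percent of the 48 proteasome genes (blue) and of all 20046 coding genes (grey) with a summit within 1 kb of a TSS, for each library, in full lists (left) and in lists of equal length (right). In both POL2 panels the proteasome bar is the taller in all 6 libraries; in the full MYC lists it is the taller in 5 of 6, the exception being SLK-KO 2 with 6.25% against 6.38%.

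Among the core particle genes, the 7 alpha ring genes PSMA1 to PSMA7 all had POL2, 5 of them in all 6 libraries. Of the 7 constitutive beta ring genes, 5 had POL2 in at least 1 library and 2, PSMB1 and PSMB4, in all 6. PSMB6, which carries the caspase-like protease site, was called only in WT 1, at rank 10985 of 17126. PSMB5, which carries the chymotrypsin-like site, and PSMB3 had none. In the 19S cap, 8 of 9 base genes and 8 of 8 lid genes had POL2, and 4 of each had it in all 6 libraries. The base gene without POL2 was PSMC4, one of the 6 ATPases. PSMD1, a scaffold of the base, was called only in WT 1 (rank 4540) and SLK-KO 3 (rank 7335). The 7 assembly chaperones all had POL2, as did the 3 other regulators: PSME3 (the nuclear activator PA28 gamma), PSME4 (the activator PA200) and PSMF1 (the inhibitor PI31).

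Of the immune genes, 1 of 5 had a POL2 promoter summit, against 12 of 14 core particle and 16 of 17 cap genes. The share of all coding genes was 53.8%. The other 4 immune genes lie in long stretches without any POL2 summit, described below, as do 2 core particle genes and 1 cap gene. These counts therefore allow no comparison between the classes. The immune gene with POL2 was PSMB10, the immune counterpart of PSMB7. It ranked 4886 in WT 1 and 6254 in WT 3, was not called in WT 2, and ranked 5631, 3829 and 5865 in SLK-KO. These PSMB10 summits lay 732 to 865 bp downstream of its canonical TSS, near an alternative start. PSMB8 and PSMB9, the other immune protease subunits, and PSME1 and PSME2, which encode PA28 alpha and beta, had none in any library. The tissue-restricted genes PSMA8, of the testis, and PSMB11, of the thymus, had none either. Antigen presentation genes outside the family were mixed. NLRC5, the transactivator of MHC class I genes, was called in 3 SLK-KO and 0 WT libraries (ranks 8226, 9729 and 9497), as were 1.54% of all coding genes. IRF1 and ERAP1 had POL2 in all 6 libraries, whereas TAP1, TAP2, TAPBP and B2M had none.

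**Figure D2:**
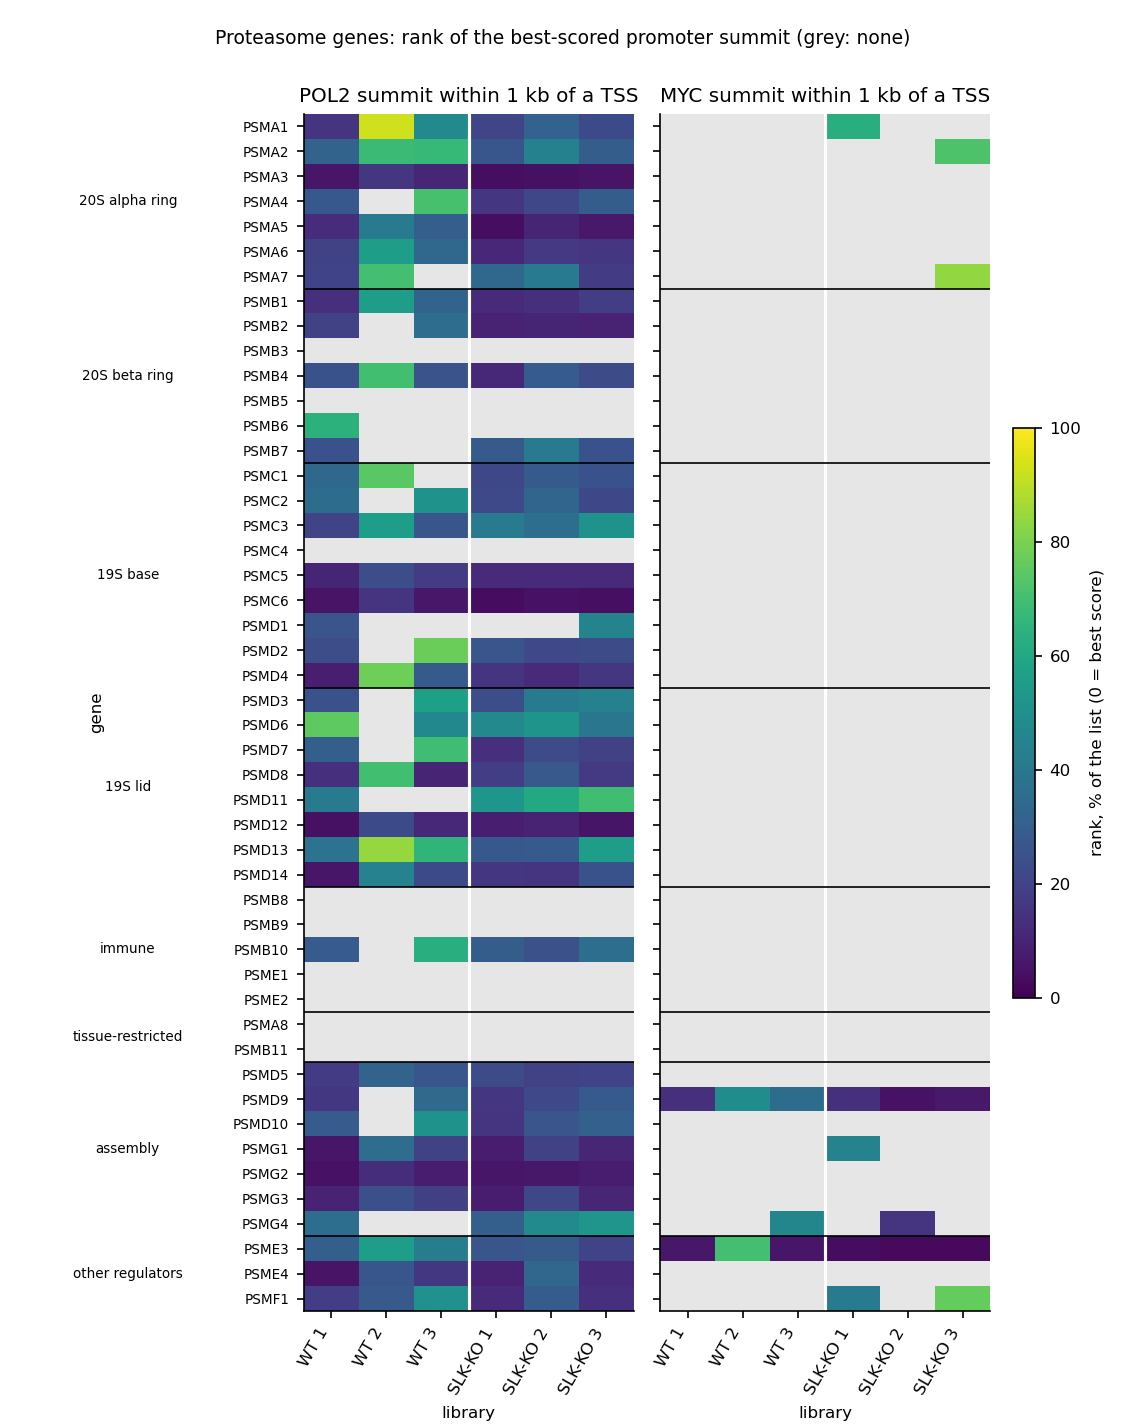
Rank of the best-scored promoter summit as a percent of the list (0 is the best score) for the 48 genes (rows, grouped by role) in the 6 POL2 libraries (left) and the 6 MYC libraries (right); grey means that no summit was called within 1 kb of a TSS. Grey rows in the POL2 panel are PSMB3, PSMB5, PSMC4, PSMB8, PSMB9, PSME1, PSME2, PSMA8 and PSMB11, and the rows filled throughout the MYC panel are PSMD9 and PSME3.

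The 9 genes without POL2 were not near-misses. The nearest POL2 summit of any library lay 24622 bp from a TSS of PSMB5, 32107 bp from PSMB11, 43268 bp from PSMA8, 83756 bp from PSMB3 and 211815 bp from PSMC4. It lay 292290 and 282240 bp from PSME1 and PSME2, and 726483 and 715065 bp from PSMB8 and PSMB9. All 9 were thus over 10 kb from any POL2 summit, as were 39.9% of all coding genes, and 5 of the 48 were over 100 kb away, against 18.4%.

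These genes sat in long stretches of the genome where none of the 6 POL2 libraries had a summit, and 8 of the 9 shared theirs with several other coding genes. PSMB8 and PSMB9 lie near each other in the major histocompatibility complex, with the canonical TSS of TAP1 between theirs. Their stretch of 5127725 bp with 184 coding genes (chr6:28443437-33571162) also holds TAP1, TAP2 and TAPBP. It includes such widely transcribed genes as TUBB (a beta tubulin), RPS18 (a ribosomal protein) and BRD2. PSMB3 lies in a stretch of 3256298 bp with 58 coding genes (chr17:35589509-38845807). PSME1 and PSME2 share one of 860403 bp with 41 coding genes (chr14:23569407-24429810). PSMC4 lies in 651107 bp with 14 genes, among them the nucleolar gene FBL (chr19:39540152-40191259). PSMB5 and PSMB11 share 275941 bp with 10 genes (chr14:23010105-23286046). PSMA8 lies in 135851 bp with 2 genes.

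Stretches over 100 kb with 10 or more coding genes held 2361 coding genes (11.8%) and 8 of the 48 proteasome genes. Of the 40 others, 39 had POL2 in at least 1 library: 12 of 12 core particle genes, 16 of 16 cap genes and the single immune gene left, PSMB10, which was not called in all 6. The exception was PSMA8. Of all coding genes outside such stretches, 60.5% had POL2, against 53.8% of all coding genes. A gene inside such a stretch lacks a POL2 summit at its canonical TSS by construction (unless it lies at the edge), and the limits of length and gene number were chosen after the values were seen, so these counts are a description and allow no comparison between the classes. TUBB, RPS18, BRD2 and FBL were named after their position was seen.

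Of these 9 genes, 3 lie in loci with repeated haplotypes. The reference carries 261 alternate sequences, which are second copies of variable loci. Every one of the 39 tiled 50-base words around the TSS of PSMB8, PSMB9 and PSMB3 was found again on some alternate of the same chromosome. For PSMB8 and PSMB9, 7 alternates held enough of these words to count as a copy, and for PSMB3 1 did. The other 45 genes had no such copy. Over all coding genes, 828 (4.13%) had a repeated promoter; 14 of these (1.69%) had a POL2 promoter summit in at least 1 library, against 56.0% of the 19218 without a copy. No MYC or POL2 summit lay within 1 kb of the alternate copies of the 3 proteasome genes. For PSMB5, PSMC4, PSME1, PSME2, PSMA8 and PSMB11, which also lacked POL2, no copy was found on the alternates of this reference. The lists also use 24 sequence names that are not in the reference used here, and copies on those were not analysed here. The part of read mapping in the missing summits was not tested for any of the 9 genes.

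**Figure D3:**
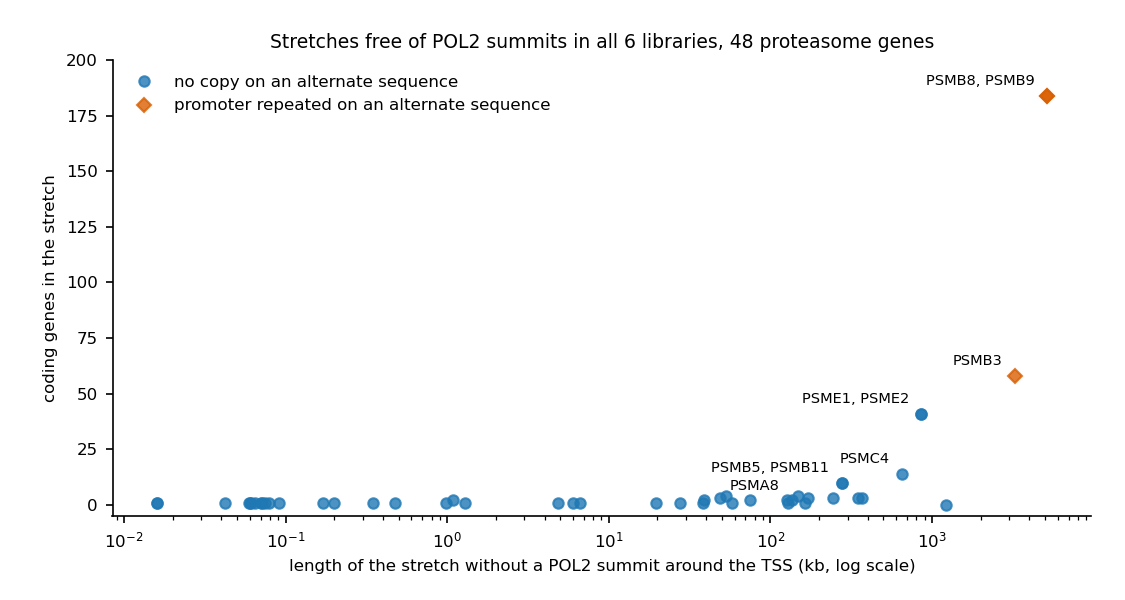
Length of the stretch without a POL2 summit around the canonical TSS of each of the 48 genes (horizontal, kb, log scale) against the number of coding genes whose canonical TSS lies within it (vertical); diamonds mark genes with a promoter copy on an alternate sequence. PSMB8 and PSMB9 (184 genes) and PSMB3 (58 genes) are the diamonds, and the other labelled genes without POL2 are circles.

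POL2 lay close to the TSS at proteasome genes. By library the median distance from the summit to the nearest TSS was 33, 18 and 47.5 bp in WT and 24, 34 and 36 bp in SLK-KO. Over all coding genes with a promoter summit the medians were 54, 58 and 57 bp and 57, 59 and 56 bp. Each proteasome median was the smaller of its pair, and genotypes overlapped. Between 75.0% and 87.2% of the proteasome summits, and between 62.4% and 65.4% of all, lay within 100 bp of a TSS. Measured to the canonical TSS only, the proteasome medians were 65, 46 and 86 bp in WT and 65, 74 and 56 bp in SLK-KO, and those of all coding genes 83, 85 and 84 bp and 87, 89 and 85 bp. There the proteasome median was the smaller in 5 of 6 libraries, the exception being WT 3. The mean of the 6 proteasome medians was 65.3 bp, instead of 32.1 bp to the nearest TSS. At 3 genes the best-scored summit was over 1 kb from the canonical TSS in some library: PSMC2, which shares an alternative start region with DNAJC2 on the opposite strand, PSMG4 in SLK-KO 2, and PSME3. In 5 libraries the PSME3 summit counted here lay 9149 to 9236 bp upstream of its canonical TSS, at an alternative start beside the main promoter of BECN1, an autophagy gene on the opposite strand. At the canonical PSME3 promoter itself POL2 was called in WT 1 and WT 3 (ranks 5179 and 8596) and in all 3 SLK-KO libraries (5749, 4618 and 6741), but not in WT 2.

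Shared promoters were frequent. An opposite-strand coding TSS lay within 1 kb of 15 of the 48 genes (31.3%), against 17.7% of all coding genes, and of 12 of the 39 with POL2 (30.8%), against 26.6%. Alternative starts of both genes were counted, so a pair need not share its main promoters. The nearest starts of such pairs lay 2 bp apart for ACYP2 and PSME4 and for SPIRE1 and PSMG2, 3 bp for RNF31 and PSME2, 9 bp for CEP76 and PSMG2, and 21 bp for FTSJ3 and PSMC5. In these data a summit in such a window cannot be assigned to one of the 2 genes, since the antibodies do not report strand.

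The strongest and most even POL2 scores of the family came from genes with different roles, named here after their values were seen. PSMC6, a 19S ATPase, ranked 936, 770 and 645 in WT and 640, 727 and 640 in SLK-KO. PSMA3, of the alpha ring, ranked 1022, 792 and 1081 in WT and 716, 675 and 873 in SLK-KO. PSMG2, a chaperone of alpha ring assembly, ranked 830, 661 and 801 in WT and 1171, 1019 and 1230 in SLK-KO. These PSMG2 summits lay 7 to 32 bp from a TSS of CEP76 on the opposite strand. They lay 140 to 179 bp from the nearest TSS of PSMG2. The ranks of PSMC6 overlapped between the genotypes and those of PSMG2 did not. At the other end, PSMD11, of the lid, was called in WT 1 at rank 6987 and in SLK-KO at ranks 9998, 9353 and 11300.

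No proteasome gene had POL2 in 3 SLK-KO and 0 WT libraries (1.54% of all coding genes did) or in 3 WT and 0 SLK-KO libraries (0.00998%). The commonest gap was WT 2 alone: 10 of 48 genes (20.8%) were called everywhere else, against 14.7% of all. In lists of equal length, 1 gene had POL2 in 3 SLK-KO and 0 WT libraries (against 0.998%), PSMD7, which encodes a lid subunit. Its full-list ranks were 5179 and 6892 in WT 1 and WT 3, with no call in WT 2, and 2539, 3501 and 3234 in SLK-KO. For PSMC3, another 19S ATPase, the reverse held at equal length (1 gene, against 0.454%). With WT 1 left out, 3 genes had POL2 in all SLK-KO and none of the other WT libraries: PSMB7, PSMD11 and PSMG4 (6.25%, against 8.3% of all coding genes).

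To compare score order between genotypes, ranks were taken again within the 3615 coding genes with a POL2 promoter summit in all 6 libraries, which include 22 proteasome genes. The WT and SLK-KO ranges did not overlap at 5 of the 22. SLK-KO ranked better at 2 (9.09%), against 15.0% of all genes in the set, and worse at 3 (13.6%), against 14.9%, so the shares were at or below those of all genes. With 3 libraries against 3, the exact two-sided permutation test cannot go below p = 0.1, which all 5 reached. Their p adjusted over all 3615 genes (Benjamini-Hochberg) was 0.335, and no gene in the set fell below 0.05.

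PSMA5, of the alpha ring, had the widest gap between the group means. Its rank in the common set was 2037, 1915.5 and 2465 in WT and 708.5, 1459 and 1056 in SLK-KO, a mean of 2139 against 1075. Every SLK-KO library placed it ahead of every WT library. PSMA6, also of the alpha ring, ranked 2731, 2526.5 and 2612 in WT and 1949, 2142 and 2165 in SLK-KO. Here too all SLK-KO ranks were the better ones, by a smaller margin.

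PSMC3 was placed the opposite way, with ranks of 2831, 2526.5 and 2289 in WT and 3503, 3215.5 and 3510 in SLK-KO. PSME4, whose promoter is shared with ACYP2, ranked 941, 1309 and 1518 in WT and 1712, 3112.5 and 1774 in SLK-KO. PSMG2, whose window is shared with CEP76 and SPIRE1, ranked 836.5, 630.5 and 798.5 in WT and 1131.5, 979.5 and 1185.5 in SLK-KO. In all 3 genes every SLK-KO library ranked behind every WT library. Without WT 2, whose short list limits the common set, 13 of 32 proteasome genes (40.6%) had ranges without overlap, against 40.3% of 6567 genes.

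**Figure D4:**
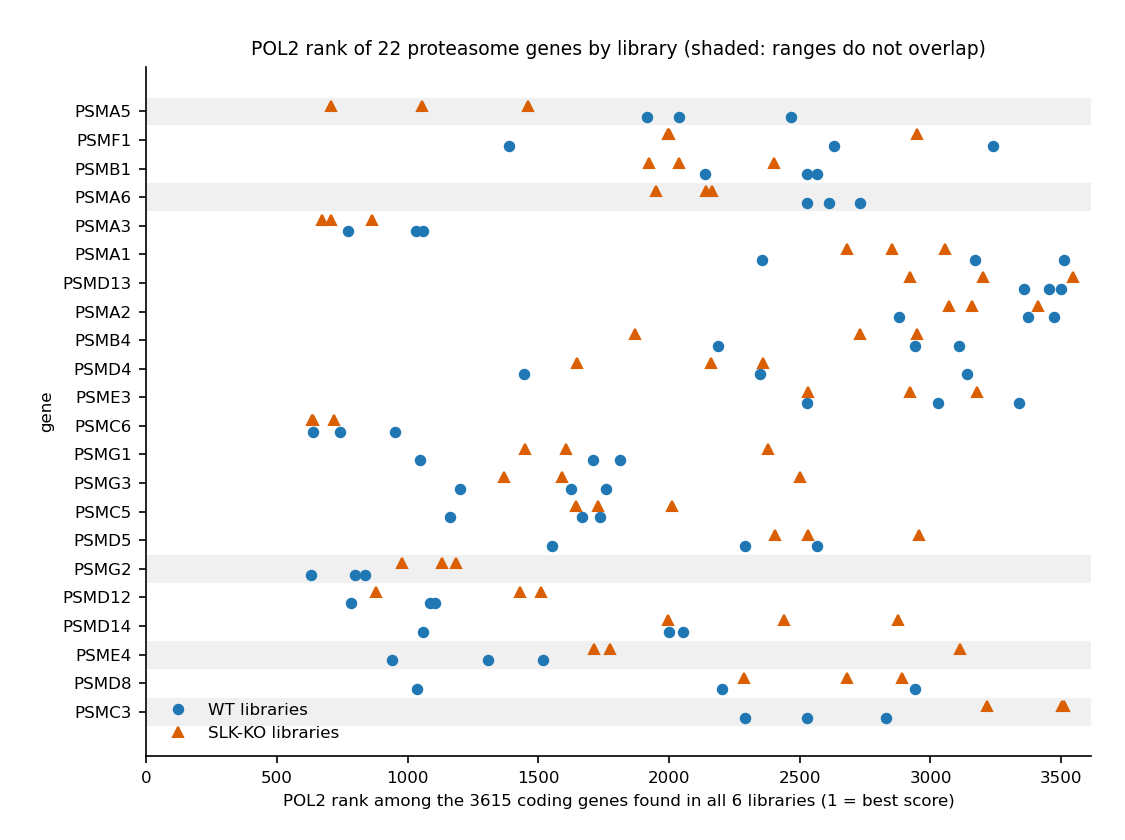
POL2 rank of 22 proteasome genes among the 3615 coding genes found in all 6 libraries (horizontal, 1 is the best score), with 3 WT libraries (circles) and 3 SLK-KO libraries (triangles) per gene; genes are ordered from better to worse in SLK-KO by the difference of median ranks. Shaded rows mark the 5 genes whose ranges do not overlap: PSMA5 and PSMA6 rank better in SLK-KO, and PSMG2, PSME4 and PSMC3 worse.

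The upstream sequences of PSMA5 and PSMC3, which ranked in opposite directions between the genotypes, are shown with that of PSMC6, whose POL2 score was high in all libraries. Each runs 5′ to 3′ on the strand of the gene, from 150 bases before the canonical TSS, and is taken from RefSeq on GRCh38. CCAAT, the CCAAT box, is in capitals where it reads on that strand. The stretches are chr1:109426449-109426598 on the minus strand for PSMA5, chr11:47426474-47426589 on the minus strand for PSMC3 and chr14:52707050-52707177 on the plus strand for PSMC6. The last 2 end before the TSS where an annotated untranslated region begins.
PSMA5 upstream: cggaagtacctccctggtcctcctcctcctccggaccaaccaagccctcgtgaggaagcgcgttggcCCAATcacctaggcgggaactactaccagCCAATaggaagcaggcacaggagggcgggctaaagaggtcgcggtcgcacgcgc
PSMC3 upstream: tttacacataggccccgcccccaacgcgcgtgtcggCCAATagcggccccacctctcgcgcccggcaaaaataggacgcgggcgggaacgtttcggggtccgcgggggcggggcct
PSMC6 upstream: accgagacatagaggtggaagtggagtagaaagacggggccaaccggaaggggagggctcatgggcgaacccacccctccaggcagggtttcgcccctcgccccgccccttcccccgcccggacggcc

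PSMA5 shows 2 CCAAT boxes, PSMC3 shows 1 and PSMC6 shows 0 in these stretches. These matches describe the letters only.

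MYC was called at few proteasome promoters, and at none of the 17 genes of the 19S cap. A MYC promoter summit was called in at least 1 library at 8 of 48 genes (16.7%), against 9.65% of all coding genes. All 8 had POL2 in at least 1 library; among genes with POL2 the shares were 20.5% of 39 proteasome genes and 17.7% of all. By library, 2, 2 and 3 genes had MYC in WT and 5, 3 and 5 in SLK-KO. The groups met at 3, and the means were 2.33 ± 0.577 and 4.33 ± 1.15 (SD over 3 libraries). The share of all coding genes was 1.83%, 1.04% and 1.39% in WT and 5.48%, 6.38% and 4.65% in SLK-KO. In lists of equal length the counts were 2, 2 and 3 in WT and 2 in each SLK-KO library, so SLK-KO was not the higher there. The matching shares of all coding genes were 1.06%, 1.04% and 1.08% in WT and 0.983%, 1.01% and 1.02% in SLK-KO. Over the 6 libraries of equal length, 3 genes had MYC (6.25%), against 2.39%. No gene had MYC in 3 SLK-KO and 0 WT libraries (against 0.873%) or the reverse (against 0.0%).

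By role, MYC was called at 3 of 7 alpha ring genes, 3 of 7 assembly genes and 2 of 3 other regulators. It was called at 0 of 7 beta ring, 0 of 9 base, 0 of 8 lid, 0 of 5 immune and 0 of 2 tissue-restricted genes. Over all coding genes the share was 9.65%. In lists of equal length, MYC was called at 0 of 7 alpha ring genes, 2 of 7 assembly genes and 1 of 3 other regulators. With 48 genes and lists this short, these zero counts do not show that MYC is absent.

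MYC was called in all 6 libraries at 2 of 48 genes (4.17%), against 0.494% of all coding genes. PSMD9, a chaperone of base assembly (chr12:121888732-121918297), ranked 51, 98 and 94 in WT and 166, 71 and 68 in SLK-KO. PSME3 (chr17:42824385-42843760) ranked 23, 141 and 16 in WT and 39, 37 and 24 in SLK-KO. Both genes lay in the upper part of every SLK-KO list, and PSME3 in WT 2, at 141 of 201, had the lowest of the 12 placings relative to list length. Within the 99 genes with MYC in all 6 libraries, PSMD9 ranked 37.5, 59.5 and 62.5 in WT and 69.5, 53.5 and 46.5 in SLK-KO. PSME3 ranked 22.5, 79.5 and 18.5 in WT and 34.5, 35.5 and 20 in SLK-KO. The genotypes overlapped at both genes (exact permutation p = 0.8 and p = 0.9, adjusted over the 99 genes 0.99 for both), whereas 10.1% of the 99 genes ranked better and 7.07% worse in SLK-KO without overlap.

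At PSMD9 the MYC summits lay over the E-box. They lay 142, 97 and 121 bp upstream of the canonical TSS in WT and 115, 167 and 125 bp upstream in SLK-KO. The distance from the summit to the centre of the E-box was 13.5, 31.5 and 7.5 bp in WT and 13.5, 38.5 and 3.5 bp in SLK-KO. All 6 summits were thus within 100 bp of CACGTG. By library, 39.3%, 44.3% and 44.1% of all promoter MYC summits in WT had a CACGTG this close, and 30.8%, 29.5% and 30.2% in SLK-KO. POL2 in the same-numbered library lay 236 and 220 bp from the MYC summit in WT 1 and WT 3 and 181, 230 and 204 bp from it in SLK-KO, always on the downstream side. In WT 2 no POL2 summit was called at PSMD9. The sequence that holds all 6 MYC summits is chr12:121888590-121888730 on the plus strand, shown with the E-box in capitals.
PSMD9 MYC window: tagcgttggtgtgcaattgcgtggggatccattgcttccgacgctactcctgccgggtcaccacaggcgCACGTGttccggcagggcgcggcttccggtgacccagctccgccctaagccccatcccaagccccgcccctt

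A readthrough gene starts 19 bp from the nearest PSMD9 TSS on the same strand, so the site belongs to both annotations.

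At PSME3 the E-box lay beside the MYC summits rather than under them. The summits were 148, 39 and 153 bp upstream of the canonical TSS in WT and 186, 140 and 156 bp upstream in SLK-KO. Their distance to the centre of the E-box was 108.5, 0.5 and 113.5 bp in WT and 146.5, 100.5 and 116.5 bp in SLK-KO. WT 2, the library with the fewest summits, was the single one with the summit on the E-box; the other 5 lay close to each other and over 100 bp away. The same summits lay 8 to 91 bp from a TSS of alternative BECN1 transcripts in 5 libraries, nearer than to any TSS of PSME3. PSMB3, the other gene with a CACGTG in its promoter, had no MYC and no POL2 summit in any library.

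**Figure D5:**
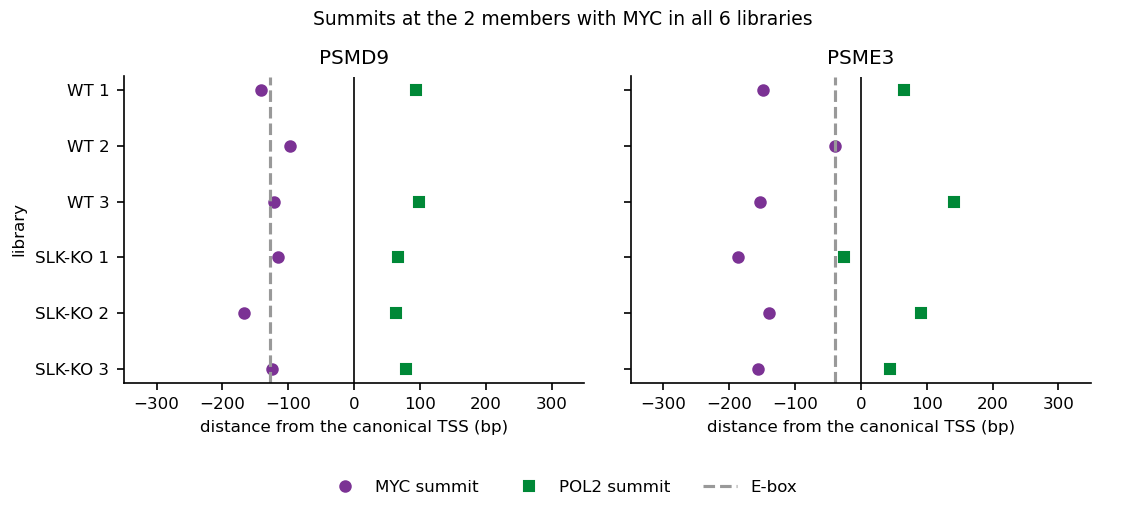
Position of MYC summits (circles) and POL2 summits (squares) relative to the canonical TSS (0 bp, vertical line) of PSMD9 and PSME3 in each library; the dashed line is the E-box. At PSMD9 the MYC summits lie on both sides of the dashed line within 38.5 bp, at PSME3 5 of 6 lie upstream of it by 100.5 bp or more, and POL2 is missing in WT 2 at both genes.

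The other 6 genes with MYC had it in 1 or 2 libraries. Alpha ring genes were called once each: PSMA1 in SLK-KO 1 (rank 769), PSMA2 in SLK-KO 3 (rank 713) and PSMA7 in SLK-KO 3 (rank 827). The PSMA2 summit lay 41 bp from a TSS of MRPL32, a mitochondrial ribosomal protein gene on the opposite strand, and 150 bp from its own. PSMG1, the partner of PSMG2 in alpha ring assembly, was called in SLK-KO 1 (rank 544). PSMG4, a chaperone of the alpha ring, was called in WT 3 (rank 123) and SLK-KO 2 (rank 218), and PSMF1 in SLK-KO 1 (rank 501) and SLK-KO 3 (rank 753). None of these summits had CACGTG within 250 bp. Of the 8 genes with MYC, 5 (62.5%) had an opposite-strand coding TSS within 1 kb of any of their own TSSs. The share of all coding genes with MYC was 31.8%. At PSMA1 and PSMG4 that opposite-strand TSS did not lie within 1 kb of the MYC summit.

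Genes that work with the proteasome but are outside the family had POL2 at 21 of 21, in all 6 libraries at 13, and MYC at 7 of 21. The shares of all coding genes were 53.8%, 18.0% and 9.65%. At equal list length, 2 of the 21 had MYC. POMP (the chaperone of beta ring assembly), ADRM1 (a ubiquitin receptor of the cap) and NFE2L1 had POL2 in all 6 libraries, and DDI2, the protease that activates NFE2L1, in 2 WT and 3 SLK-KO libraries. None of these 4 had a MYC promoter summit. NFE2L1 ranked 1797, 1750 and 1483 for POL2 in WT and 1049, 969 and 981 in SLK-KO, ranks that come from lists of different length.

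Promoter sequences were searched for the E-box, the antioxidant-type element and other common promoter motifs. RefSeq promoters, from 250 bases before to 50 after the TSS, were matched for 42 of the 48 genes and 15324 coding genes, and 5 motifs were searched on both strands. TGACNNNGC, the core of that element, was found in 12 of 42 proteasome promoters (28.6%), against 14.3% of all. The 12 were PSMB3, PSMB9, PSMC4, PSMD1, PSMD3, PSMD5, PSMD9, PSMD12, PSME1, PSME2, PSME4 and PSMG1, of which 7 had POL2 in at least 1 library. Among promoters with POL2 the gap was smaller, with 7 of 33 (21.2%) against 15.6%. CACGTG was found in 3 (7.14%), against 8.87%, and CACGCG in 5 (11.9%), against 15.5%; among promoters with POL2, CACGCG was found in 9.09% against 19.2%. CCAAT was found in 18 (42.9%), against 36.6%, and GGGCGG, the GC box, in 29 (69.0%), against 61.8%. A CACGTG match cannot overlap a CACGCG match, whereas TGACNNNGC can overlap the other motifs through its free bases or end letters.

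Antioxidant-type sites of lid and assembly genes are shown with the motif in capitals. Each is 29 bases of GRCh38 from RefSeq, 5′ to 3′ on the strand of the gene, and lies upstream of the TSS. PSMD12 and PSMD3 belong to the lid, and PSMD5 and PSMD9 to the chaperones of the base. They lie at chr17:67366724-67366752 (minus), chr17:39980760-39980788 (plus), chr9:120843038-120843066 (minus), chr12:121888631-121888659 (plus) and chr12:121888678-121888706 (plus).
PSMD12 site: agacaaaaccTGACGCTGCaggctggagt
PSMD3 site: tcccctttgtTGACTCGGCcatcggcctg
PSMD5 site: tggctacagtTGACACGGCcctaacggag
PSMD9 site, left: cgctactcctGCCGGGTCAccacaggcgc
PSMD9 site, right: cggcttccggTGACCCAGCtccgccctaa

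The left PSMD9 site reads the motif on the other strand, and both PSMD9 sites flank its E-box, within 100 bp of all 6 MYC summits. POL2 at these genes differed widely. PSMD12 ranked 771, 1130 and 1110 in WT and 1615, 1555 and 892 in SLK-KO. PSMD3 ranked 4336 and 5605 in WT 1 and WT 3, had no call in WT 2, and ranked 4589, 6386 and 7161 in SLK-KO. The genotypes overlapped at both genes, and the motif was shared by genes that lay far apart in the POL2 order. A CpG-rich promoter, with observed over expected CpG above 0.6, was found at 37 of 42 (88.1%), against 68.9% of all coding genes and 88.4% of coding genes with POL2.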

How the data were processed

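MYC and POL2 libraries of WT and SLK-KO PC-3 cells (3 each) were grouped by their titles. The authors ran nf-core/chipseq 2.1.0 on 50 bp paired-end reads and GRCh38.p14, per the labels; the submitters' processing notes name BWA 0.7.18-r1243 and MACS3 3.0.1. The deposited score, a −log10 q-value of the authors' peak caller, was identified from its values (lowest 1.30169, just above 1.30103, which is −log10 of 0.05). It is the authors' own value per peak, called per library, and was used only to rank or filter within a list. The control used in peak calling is not given in the sources used here.

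Summits were assigned to GENCODE 44 TSSs within 1 kb with Python 3.11.15, pandas 2.3.3 and pysam 0.24.0. Tied scores share a mean rank in the common set. Scripts were tested on simulated data. All 48 genes are accounted for; values are given per library for genes with MYC, with POL2 3 against 0 or ranks without overlap, with no POL2, and for the immune genes. These members, lists and rules were chosen with earlier results of these data known. Alternatives were windows of 250 bp and 2 kb, a score of at least 5, lists of equal length, the canonical TSS, each library left out, and a replicate block.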

Additional observations from a re-analysis of the deposited data

How the results depend on the processing

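Of 100 recomputed values, 85 stayed within the spread or within 1.5 times the count. For the SLK-KO minus WT difference in genes with POL2, 5.667 in the full lists, that spread was wide, at 5.323. Values counted as unchanged there were 2.0 in lists of equal length and 1.833 without WT 2. So was 9.333, both without WT 1 and with a score of at least 5. The SLK-KO minus WT difference in genes with MYC, 2.0 in the full lists, was -0.333 in lists of equal length, which hold fewer SLK-KO summits, and 1.0 with a score of at least 5. The count of genes with MYC, 8 in the full lists, was 3 at equal length and 5 with a score of at least 5, where 1 gene instead of 2 had CACGTG within 100 bp of a MYC summit. At equal length 1 gene had POL2 in 3 SLK-KO and 0 WT libraries instead of 0. The median POL2 distance was 65.3 bp with the canonical TSS alone. Leaving out each library in turn gave 5 to 13 genes with POL2 ranks that do not overlap (13 without WT 2), 0 to 3 genes with POL2 in SLK-KO alone (3 without WT 1), 0 to 1 with MYC in SLK-KO alone (1, PSMF1, without SLK-KO 2) and 1 to 2 with CACGTG near MYC (1 without WT 2, the PSME3 summit). The cause was not tested. The ranks of same-numbered libraries did not deviate together (r of 0.0089, 0.0091 and -0.0164 for POL2, and -0.2182, -0.0958 and -0.1266 for MYC). Ranks cannot show whether these libraries were processed together, since they remove any difference shared by all genes of a library. Whether the numbers pair the libraries is not known. With a replicate block, 9 of 22 genes (40.9%) changed rank in the same direction in all 3 pairs, against 45.4% of all genes, and no p could fall below 0.25. Leaving out the genes in stretches free of POL2 was added after seeing the data. Depth is unknown, which limits every statement that a summit is missing.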

Other observations

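POL2 summits inside a gene body, over 1 kb from any TSS of the gene, were few. PSMG3, a small assembly chaperone gene of 3674 bp, had 1 in each of the 6 libraries, and a MYC summit in SLK-KO 2 as well. PSMA3 had 6, 0 and 1 in WT and 4, 2 and 0 in SLK-KO. PSMD12 had 2, 0 and 0 in WT and 1, 0 and 0 in SLK-KO, and PSMD7 had 0 in each WT library and 2, 1 and 0 in SLK-KO. The genotypes overlapped at each of these genes.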
